A study of Mus musculus with 12 samples.

Results

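Transcripts of 7 G-protein-coupled receptors that place B cells within lymphoid tissue were followed in sorted mouse follicular B cells with and without GPR174, before and after a short culture. The receptors were taken by gene symbol, though with earlier results of these data known: *Cxcr5*, *Ccr7*, *Gpr183*, *Ccr6*, *Cxcr4*, *S1pr1* and *S1pr4*. Counts of called receptors below are therefore a description. All 7 had a row in both tables of read counts, which held 13269 genes at 0 h, 13142 genes at 4 h and 12837 genes in common. The libraries were made from spleen follicular B cells (labelled CD21/35- CD23+) of adult male mice that were either Gpr174+/Y (WT) or Gpr174-/Y (KO). In the KO allele a tdTomato cassette takes the place of the coding exon of *Gpr174*, and since the change is germline, every cell of the mouse carries it, not B cells alone. Sorted cells were either frozen at once (0 h) or kept for 4 h in RPMI culture medium to which no stimulus was added. This gave the groups WT 0 h, WT 4 h, KO 0 h and KO 4 h, with 3 libraries each. The labels do not say whether libraries of the same number at 0 h and 4 h came from the same mouse, so p-values measure the spread between these libraries.

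B cells find their place in spleen and lymph node by reading gradients of lipids and chemokines through such receptors, most of which couple to Gαi. CXCR5 draws B cells into follicles toward CXCL13, and CCR7 draws them toward the CCL19 and CCL21 of the T cell zone, so the balance of the pair sets how close a B cell sits to the T zone boundary. GPR183 (EBI2) reads oxysterols and guides B cells to the outer follicle and the border with the T zone. CCR6 reads CCL20, CXCR4 reads CXCL12, and S1PR1 and S1PR4 read sphingosine 1-phosphate, which through S1PR1 promotes exit from lymphoid organs into the circulation. GPR174 itself responds to lysophosphatidylserine and can couple to Gαs, which raises cAMP. The comparisons ask whether loss of GPR174 changed the transcript levels of the 7 receptors in fresh cells, whether culture changed them, and whether it changed them differently in WT and KO.

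Levels are given as CPM, the read count of a gene relative to the size of its library, with sizes scaled by TMM to correct for differences in RNA composition. They are shown as mean ± SD (n = 3). Library totals ran from 6098940 to 11618800 counts, and a receptor was counted 635 to 6302 times in a library, which sets the counting error behind each value. *Gpr174*, the targeted gene, was lower in every KO library than in every WT library at the same time. It was at 152 ± 4.26 CPM in WT 0 h and 74.7 ± 1.76 CPM in KO 0 h, and at 161.7 ± 8.36 CPM in WT 4 h and 109.6 ± 7.52 CPM in KO 4 h. The KO libraries thus held 49.2% of the WT level at 0 h and 67.8% at 4 h. In culture *Gpr174* reads rose 1.47-fold in KO (edgeR quasi-likelihood test, adjusted p = 2.39e-06), and the change in WT was not called (adjusted p = 0.31). The difference of the 2 log2 changes, WT minus KO, was -0.47 (adjusted p = 0.00208 by the same test), and its cause was not tested. Gene counts do not separate reads of the replaced coding exon from reads of the untranslated exons that the allele keeps. *Fcer2a*, which encodes CD23, was at 1532 CPM in WT 0 h, and *Cr2*, which encodes CD21/35, was at 1070 CPM, although the cells were sorted as CD21/35-. The T cell genes *Cd3d*, *Cd3e* and *Cd3g* were each under 2 CPM on average in every group. The 7 T cell markers with a row summed to 17.6 to 34.1 CPM, most of it from *Lck*, at 14.4 to 25.3 CPM on average. Summed markers of cycling cells (6 genes) were higher in KO 0 h (326 to 477 CPM) than in WT 0 h (127 to 210 CPM), as were those of germinal centre B cells (5 genes; 79.8 to 133 CPM against 31.2 to 64.0 CPM). After culture the cycling markers were at 142 to 257 CPM in KO 4 h and 99.2 to 145 CPM in WT 4 h. Summed B cell markers were lower in KO 0 h (7252 to 7588 CPM) than in WT 0 h (7713 to 8110 CPM). They were higher in KO 4 h (6369 to 6563 CPM) than in WT 4 h (5412 to 5646 CPM). Summed marginal zone markers were at 190 to 199 CPM in KO 0 h and 175 to 187 CPM in WT 0 h, but the single genes were split. On average *Dtx1* (114 CPM in KO 0 h, 106 in WT 0 h), *Myof* (37.6, 28.1) and *Cd9* (2.20, 1.91) were higher in KO. *Cd1d1* (32.6, 34.4) and *S1pr3* (9.67, 10.1) were lower in KO. Summed plasma cell markers were at 443 to 478 CPM in KO 4 h and 519 to 571 CPM in WT 4 h. Most of these sums came from *Irf4*, at 372 CPM on average in KO 4 h and 435 CPM in WT 4 h, while *Jchain* was at 21.9 and 22.1 CPM. Summed myeloid markers lay within 44.1 to 55.6 CPM at 0 h and 13.9 to 31.0 CPM at 4 h, and 4 of the 8 genes had no row at 4 h. The part these shifts have in the receptor values was not tested. In RNA from a whole sort, fewer cells that express a receptor and less RNA per cell cannot be told apart.

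The 7 genes lie on 7 chromosomes. By GENCODE M21 on GRCm38, the build that mm10 names, *Cxcr4* is at chr1:128588199-128592293, *S1pr1* at chr3:115710433-115715072, *Cxcr5* at chr9:44511787-44561877, *S1pr4* at chr10:81497747-81500132, *Ccr7* at chr11:99144196-99155077 and *Gpr183* at chr14:121952551-121965195, all on the minus strand. *Ccr6* is at chr17:8236043-8257141 on the plus strand and has 9 annotated transcripts. *Gpr183* sits in the span of *Ubac2* on the opposite strand but shares 0 exonic bases with it. *Cxcr5* shares 110 exonic bases, 3.3% of its exons, with *Bcl9l* on the opposite strand, and since the strand setting of the counting is not given in the sources used here, reads of those bases could belong to either gene.

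RefSeq promoter windows (GRCm38.p6, 250 bases before to 50 bases after a transcript start) were at hand for 4 of the 7 genes: *Cxcr4*, *S1pr4*, *Gpr183* and *Ccr6*, the last with 2 windows. They were searched on both strands for TGACG, the core of the cAMP response element (CRE), for the full CRE TGACGTCA, which contains that core on both strands, and for the FOXO motif GTAAACA. Only the downstream *Ccr6* window held any of the 3, a CRE core that begins 207 bases before the start. Over all 32851 promoter windows, 20.8% held the core, 1.79% the full CRE and 3.65% the FOXO motif, and 1 of the 5 windows here is close to that share. The *Ccr6* and *S1pr4* windows are shown because their changes in culture differed between WT and KO with opposite signs, and the CRE core is in capitals. Each run gives the 250 bases before the start, 5′ to 3′ on the strand of the gene.
Ccr6 upstream start, chr17:8235793-8236042 (+): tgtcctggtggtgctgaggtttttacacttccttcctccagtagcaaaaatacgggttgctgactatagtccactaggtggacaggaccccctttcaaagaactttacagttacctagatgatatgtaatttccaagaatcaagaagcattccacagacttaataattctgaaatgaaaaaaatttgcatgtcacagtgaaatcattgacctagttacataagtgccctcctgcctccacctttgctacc
Ccr6 downstream start, chr17:8242276-8242525 (+): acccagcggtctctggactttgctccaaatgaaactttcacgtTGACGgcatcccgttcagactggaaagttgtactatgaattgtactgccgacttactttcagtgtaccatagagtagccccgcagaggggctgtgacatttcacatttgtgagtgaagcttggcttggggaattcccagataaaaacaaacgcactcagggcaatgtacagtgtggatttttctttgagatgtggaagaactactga
S1pr4, chr10:81500138-81500387 (-): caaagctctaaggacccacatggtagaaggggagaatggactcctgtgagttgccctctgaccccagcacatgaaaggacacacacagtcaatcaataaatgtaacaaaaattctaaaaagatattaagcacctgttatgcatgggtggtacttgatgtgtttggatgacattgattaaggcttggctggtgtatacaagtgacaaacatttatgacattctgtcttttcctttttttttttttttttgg
The windows differed in base composition. The full windows of *Ccr6* held 42.3% and 47.7% G or C, that of *S1pr4* 41.0%, that of *Gpr183* 35.3% and that of *Cxcr4* 59.3%, against a median of 52.7% over all windows.

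To compare receptors with each other, CPM was divided by the length of the union of the annotated exons of each gene in kilobases. Before culture *Cxcr4* was the most abundant of the 7 per kilobase in WT (279 ± 129 CPM per kilobase), followed by *Cxcr5* (119 ± 4.45), *S1pr1* (97.1 ± 11.3), *Ccr7* (89.6 ± 7.59), *Gpr183* (77.4 ± 4.88), *S1pr4* (75.6 ± 5.93) and *Ccr6* (51.1 ± 6.28). The libraries of *S1pr1* and *Ccr7*, of *Ccr7* and *Gpr183*, and of *Gpr183* and *S1pr4* overlapped on this scale, and the other neighbours in the order did not. KO 0 h libraries had the same order, from *Cxcr4* at 274 ± 56.5 CPM per kilobase to *Ccr6* at 64.1 ± 1.59, and there only the neighbours *Ccr7* and *Gpr183* overlapped. After culture *Ccr7* stood at rank 2 in WT, at 251 ± 15.4 CPM per kilobase, and overlapped *Cxcr4* at 318 ± 111, while *Cxcr5* was at rank 4 with 95.4 ± 8.69. In KO 4 h *S1pr1* was at rank 2 with 135 ± 6.89 CPM per kilobase, *Ccr7* at rank 3 with 111 ± 7.09 and *Cxcr5* at rank 6 with 68.9 ± 1.54. There *S1pr4* could not be placed, since it overlapped both *Gpr183* above it and *Cxcr5* below it. Every *Gpr183* library of KO 4 h was above every *Cxcr5* library on this scale. With the longest transcript as the length the 2 overlapped there (75.7 to 86.0 against 78.8 to 82.4 CPM per kilobase). That length also moved *Cxcr5* from rank 6 to rank 5 and *S1pr4* from rank 5 to rank 6 in KO 4 h. In WT 4 h *S1pr4* moved from rank 6 to rank 7 and *Ccr6* from rank 7 to rank 6. In KO 0 h *Ccr6* moved from rank 7 to rank 4, *Ccr7* from rank 4 to rank 6 and *S1pr4* from rank 6 to rank 7.

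**Figure D1:**
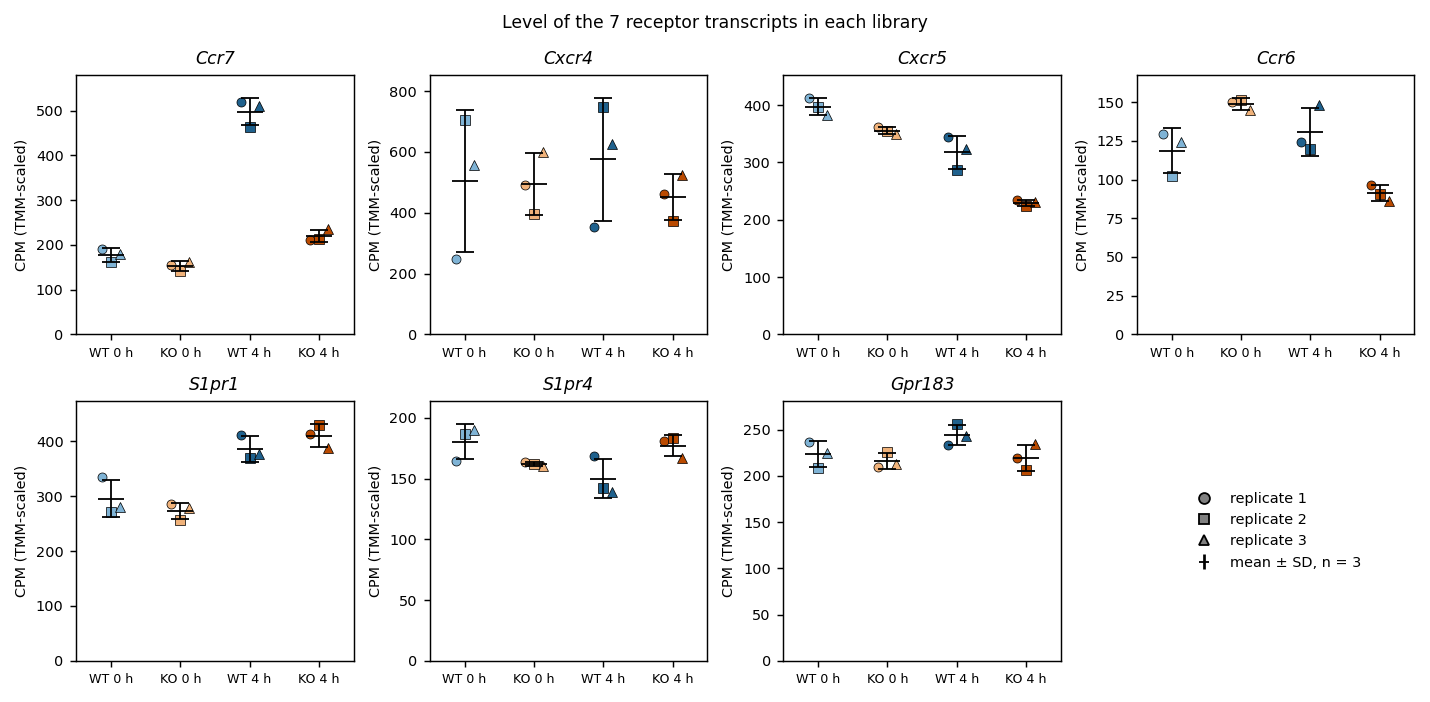
CPM (linear axis from 0) of the 7 receptor transcripts in each of the 12 libraries, with marker shape for the replicate number and bars for the mean ± SD of 3 libraries. *Ccr7* in WT 4 h stands above all other libraries (463 to 519 CPM), *Cxcr5* falls in both genotypes, *Ccr6* falls in KO (145 to 152 CPM at 0 h, 86.3 to 96.4 CPM at 4 h), and *Cxcr4* is spread over 248 to 748 CPM within WT.

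*Cxcr5*, the follicle-homing receptor, was at 412, 397 and 382 CPM in WT 0 h replicates 1 to 3 and at 362, 355 and 349 CPM in KO 0 h. Cultured WT libraries held 344, 287 and 323 CPM, and cultured KO libraries 234, 224 and 230 CPM. Every cultured library was below every fresh library, and at 4 h every KO library was below every WT library. The fall in culture was 0.32 ± 0.06 on the log2 scale in WT (a log2 fold change of -0.32, SE, adjusted p = 0.000247, edgeR quasi-likelihood test with Benjamini-Hochberg adjustment here and below) and 0.63 ± 0.06 in KO (-0.63, adjusted p = 9.07e-08). The difference of these changes, the genotype by culture interaction, was 0.31 ± 0.09 (adjusted p = 0.0305). This call was lost when either WT 0 h replicate 2 or 3, KO 0 h replicate 1 or 2, WT 4 h replicate 1 or 3, or KO 4 h replicate 2 or 3 was left out, with the adjusted p reaching 0.0985. At 4 h *Cxcr5* was 1.38-fold higher in WT than in KO (log2 0.47 ± 0.07, adjusted p = 0.000205). At 0 h the WT libraries were also above the KO libraries, with a log2 fold change of 0.15 ± 0.05 that did not pass (adjusted p = 0.178).

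*Ccr7*, the receptor for T zone chemokines, was at 191, 161 and 179 CPM in WT 0 h and at 156, 141 and 162 CPM in KO 0 h. After culture it was at 519, 463 and 510 CPM in WT and at 211, 213 and 236 CPM in KO. The fresh groups overlapped, cultured libraries of both genotypes were above their fresh counterparts, and cultured WT libraries were about level with each other and far above all the rest. Culture raised *Ccr7* 2.81-fold in WT (log2 1.49 ± 0.07, adjusted p = 4.99e-13) and 1.44-fold in KO (log2 0.52 ± 0.07, adjusted p = 1.27e-05). On the log2 scale the KO rise was 35.0% of the WT rise, and the interaction was 0.97 ± 0.10 (adjusted p = 1.2e-06). At 4 h *Ccr7* was 2.26-fold higher in WT (log2 1.18 ± 0.07, adjusted p = 1.04e-08), the 20th smallest p-value of 11123 genes. At 0 h the log2 fold change of WT over KO was 0.20 ± 0.07 (adjusted p = 0.207). The comparisons of WT 4 h with KO 4 h and with WT 0 h share the WT 4 h libraries and are not independent of each other or of the interaction.

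*Gpr183*, the oxysterol receptor, was at 237, 209 and 225 CPM in WT 0 h and at 234, 256 and 243 CPM in WT 4 h. The KO libraries held 209.7, 226 and 213 CPM at 0 h and 219, 206 and 234 CPM at 4 h. All 4 groups overlapped their partners in genotype and in time. None of its 5 comparisons passed the test, and the interaction was 0.10 ± 0.09 (adjusted p = 0.626). The log2 fold change of culture was 0.13 ± 0.06 in WT (adjusted p = 0.125) and 0.02 ± 0.06 in KO (adjusted p = 0.834), and the interval of 2 SE around the KO value ran from -0.10 to 0.15. WT over KO was 0.15 ± 0.06 at 4 h (adjusted p = 0.158), with an interval from 0.02 to 0.28.

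*Ccr6*, the receptor for CCL20, was at 129, 102 and 124 CPM in WT 0 h and at 150, 152 and 145 CPM in KO 0 h. After culture it was at 124, 119 and 148 CPM in WT and at 96.4, 90.5 and 86.3 CPM in KO. The KO libraries were thus all above the WT libraries before culture and all below them after it. In KO culture lowered *Ccr6* by 0.71 ± 0.09 on the log2 scale (log2 fold change -0.71, adjusted p = 2.88e-06), whereas in WT the change was 0.14 ± 0.09 (adjusted p = 0.212). The interaction was 0.85 ± 0.12 (adjusted p = 7.17e-05). At 4 h *Ccr6* was 1.44-fold higher in WT than in KO (log2 0.53 ± 0.08, adjusted p = 0.000412). At 0 h the log2 fold change of WT over KO was -0.33 ± 0.08 with an adjusted p of 0.0505, just outside the threshold, and it passed without WT 0 h replicate 1 (adjusted p = 0.0199) and by DESeq2 (adjusted p = 0.0118). The summed cycling and germinal centre markers given above were also higher in KO 0 h, and their part in the *Ccr6* value was not tested.

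*Cxcr4*, the receptor for CXCL12, was the receptor whose replicates differed most. It was at 248, 706 and 558 CPM in WT 0 h and at 490.4, 394 and 599 CPM in KO 0 h. After culture it was at 355, 748 and 625 CPM in WT and at 461, 373 and 523 CPM in KO. In both WT groups replicate 1 was the lowest and replicate 2 the highest, and in both KO groups replicate 2 was the lowest and replicate 3 the highest. The groups overlapped in every comparison. The pooled SD of log2 CPM within groups was 0.52 for *Cxcr4*, against 0.07 to 0.13 for the other 6 receptors and a median of 0.06 for genes of like level, among which *Cxcr4* stood at the 99.7th percentile. None of its comparisons passed the test, in which libraries were not matched by replicate number. With same-numbered libraries set as a block, edgeR called culture in WT (log2 0.25 ± 0.06, adjusted p = 0.00481) and the interaction (0.37 ± 0.09, adjusted p = 0.0127). The labels do not state that these libraries are paired. WT over KO at 4 h was 0.35 ± 0.19 on the log2 scale (adjusted p = 0.279), with an interval of 2 SE from -0.02 to 0.72. Without WT 4 h replicate 1 the value was 0.60 (adjusted p = 0.00191). The log2 change in culture was 0.19 ± 0.26 in WT (adjusted p = 0.608) and -0.13 ± 0.26 in KO (adjusted p = 0.775).

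*S1pr1*, the egress receptor for sphingosine 1-phosphate, was at 335, 272 and 280.4 CPM in WT 0 h, and it was at 285, 257 and 278 CPM in KO 0 h. After culture it was at 412, 369.7 and 376 CPM in WT and at 413, 429 and 387 CPM in KO. Fresh and cultured libraries did not overlap in either genotype, while WT and KO overlapped at both times. The rise in culture was 30.5% in WT (log2 0.38 ± 0.07, adjusted p = 0.00025) and 49.8% in KO (log2 0.58 ± 0.07, adjusted p = 2.9e-06). The interaction of -0.20 ± 0.10 did not pass (adjusted p = 0.326), and its interval of 2 SE ran from -0.40 to 0.004. At 4 h WT over KO was -0.09 ± 0.06 on the log2 scale (adjusted p = 0.455).

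*S1pr4*, a second sphingosine 1-phosphate receptor of lymphocytes and the product of a gene with 1 exon, was at 164, 187 and 190.2 CPM in WT 0 h and at 164, 162 and 160.2 CPM in KO 0 h. After culture it was at 169, 143 and 139 CPM in WT and at 181, 183 and 167 CPM in KO. The WT groups overlapped through replicate 1, and the cultured KO libraries were all above the fresh ones. Culture lowered *S1pr4* by 0.27 ± 0.07 on the log2 scale in WT (log2 fold change -0.27, adjusted p = 0.00638), and the change in KO was 0.13 ± 0.07 (adjusted p = 0.22). With library totals in place of TMM the WT call was lost (-0.16, adjusted p = 0.0699) and the KO change was called (0.22, adjusted p = 0.0242). The interaction was -0.40 ± 0.10 (adjusted p = 0.0198), opposite in sign to that of *Ccr7*, *Ccr6* and *Cxcr5*. The call was lost when WT 0 h replicate 2 or 3, WT 4 h replicate 3, or KO 4 h replicate 1 or 2 was left out, with the adjusted p reaching 0.0665. WT over KO at 4 h was -0.24 ± 0.07 on the log2 scale with an adjusted p of 0.0505, just outside the threshold, and it was -0.34 without WT 4 h replicate 1 (adjusted p = 0.00318). At 0 h it was 0.15 ± 0.06 (adjusted p = 0.335).

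**Figure D2:**
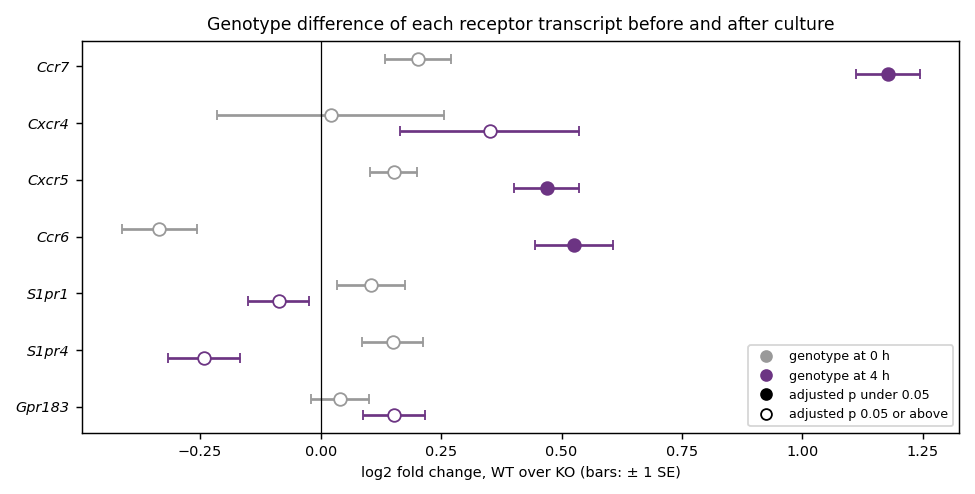
Log2 fold change of WT over KO with its SE for each receptor at 0 h (grey) and 4 h (purple), with filled points where the adjusted p was under 0.05. No receptor passed at 0 h, and *Ccr7* (1.18), *Ccr6* (0.53) and *Cxcr5* (0.47) passed at 4 h.

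In fresh cells 0 of the 7 receptors passed the genotype test, where 0.987% of 11345 genes did (112 genes). For 3 of them the libraries of the genotypes did not overlap: *Cxcr5* and *S1pr4* were higher in WT, and *Ccr6* was higher in KO. This was so for 18.3% of all genes. In edgeR 4 of the 7 had an unadjusted p under 0.05 (*Ccr6*, *Cxcr5*, *Ccr7* and *S1pr4*), where 12.7% of all genes did. DESeq2 called 1, *Ccr6* (adjusted p = 0.0118), where it called 1.36% of all genes. The median log2 fold change of the 7 was 0.10, and that of all genes was 0.00.

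After culture 3 of the 7 passed (*Ccr7*, *Ccr6* and *Cxcr5*), all higher in WT. Of all 11123 genes 10.9% passed, with 5.22% higher in WT and 5.67% in the opposite direction. The same 3 were the ones without overlap, against 27.9% of all genes. For *S1pr1*, *S1pr4*, *Gpr183* and *Cxcr4* the adjusted p ran from 0.0505 to 0.455. The median over the 7 was 0.35 on the log2 scale. DESeq2 called 4, where it called 9.35% of all genes. The one added was *S1pr4*, which was lower in WT (log2 -0.24, DESeq2 adjusted p = 0.0485). In edgeR 5 of the 7 had an unadjusted p under 0.05 (*Ccr7*, *Cxcr5*, *Ccr6*, *S1pr4* and *Gpr183*), where 23.2% of all genes did.

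Culture itself changed 4 of the 7 in each genotype. In WT *Ccr7* and *S1pr1* rose and *Cxcr5* and *S1pr4* fell, where 33.1% of 11572 genes passed, 15.1% upward and 18% downward, and 3 of the 7 had no overlap between the times against 40.9% of all genes. In KO *Ccr7* and *S1pr1* rose and *Cxcr5* and *Ccr6* fell, where 23.3% passed, 10.3% upward and 13% downward, and 5 of the 7 had no overlap against 41.9% of all genes. In both genotypes, then, the chemokine receptor of the T zone rose while that of the follicle fell. With same-numbered libraries set as a block *Cxcr4* was called in WT culture too, where 3980 of 11572 genes passed.

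For 4 of the 7 the change in culture differed between the genotypes, where 6.39% of genes passed the interaction test. It was more positive in WT for *Ccr7*, *Ccr6* and *Cxcr5*, where 2.45% of genes passed in that direction, and more positive in KO for *S1pr4*, where 3.94% did. The 4 called receptors took 4 different courses. *Ccr7* rose in both genotypes and rose more in WT, *Cxcr5* fell in both and fell more in KO, *Ccr6* fell in KO with no called change in WT, and *S1pr4* fell in WT with no called change in KO. The last 2 courses depended on the scaling: with library totals *Ccr6* rose in WT (0.25, adjusted p = 0.0253), and *S1pr4* rose in KO while its fall in WT was not called. With same-numbered libraries set as a block 5 of the 7 passed the interaction test, *Cxcr4* being the one added, where 842 of 11572 genes passed.

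**Figure D3:**
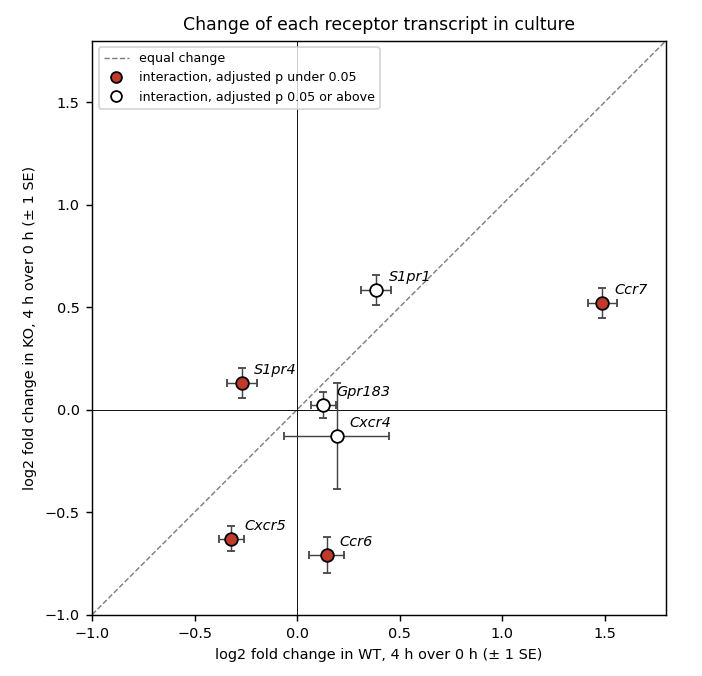
Log2 fold change of each receptor over 4 h of culture in WT (horizontal axis) and KO (vertical axis), with SE bars and a dashed line of equal change. Red points passed the interaction test: *Ccr7* (1.49 in WT, 0.52 in KO), *Cxcr5* (-0.32, -0.63) and *Ccr6* (0.14, -0.71) lie below the line and *S1pr4* (-0.27, 0.13) above it.

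Ratios of read counts of 2 receptors within a library need no scaling between libraries, and follow how 1 receptor moved against another. Since gene lengths cancel only between libraries, the ratios are compared across groups and not read as ratios of molecules. The ratio of *Ccr7* to *Cxcr5* reads was 0.446 ± 0.0346 in WT 0 h and 0.431 ± 0.0336 in KO 0 h, which overlapped. After culture the WT ratio was 1.57 ± 0.0527 and the KO ratio 0.959 ± 0.0638, without overlap among the cultured groups or between the times. From 0 h to 4 h it grew 3.52-fold in WT and 2.22-fold in KO, and at 4 h it was 1.64-fold higher in WT. Each of these 3 contrasts had p = 0.1 in an exact permutation test, two-sided, which is the smallest p that 3 libraries against 3 allow (0.15 after adjustment over the 12 tests of 3 ratios by 4 contrasts), so a threshold of 0.05 could not be reached.

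The ratio of *Gpr183* to *Cxcr5* reads went from 0.563 ± 0.0328 to 0.775 ± 0.108 in WT and from 0.609 ± 0.0281 to 0.957 ± 0.0524 in KO. It was lower in WT than in KO without overlap at 4 h (exact permutation p = 0.1, adjusted 0.15), in the direction opposite to that of *Ccr7* to *Cxcr5*. The ratio of *Ccr7* to *S1pr1* reads was 0.601 ± 0.035 in WT 0 h and 0.560 ± 0.0205 in KO 0 h. It was 1.29 ± 0.058 in WT 4 h, 2.14-fold above its 0 h value, while in KO 4 h it was 0.539 ± 0.0615 and overlapped KO 0 h (exact permutation p = 0.6, adjusted 0.6). In KO the log2 rises of *Ccr7* and *S1pr1* were 0.52 and 0.58, and in WT they were 1.49 and 0.38.

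**Figure D4:**
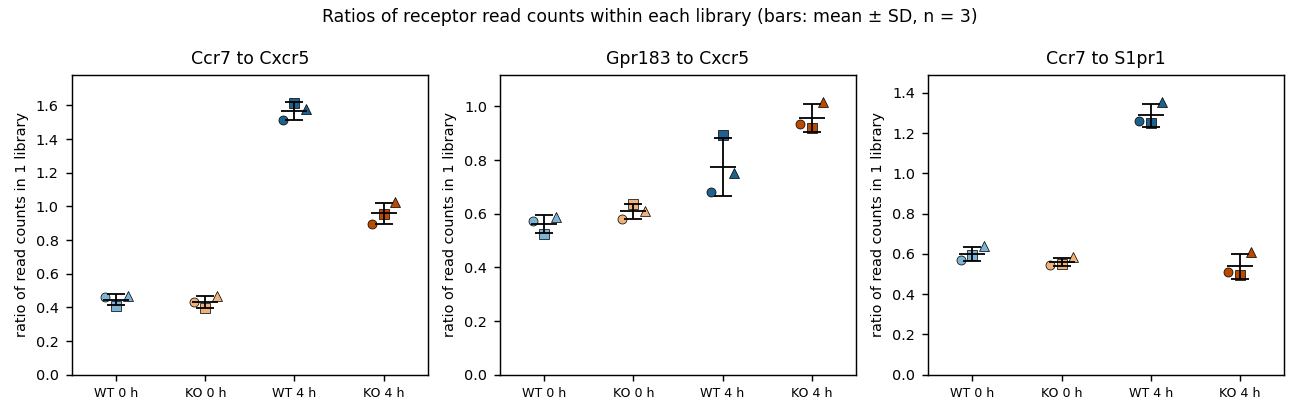
Ratio of the read counts of 2 receptors in each library (linear axes from 0), with marker shape for the replicate number and bars for the mean ± SD of 3 libraries. *Ccr7* to *Cxcr5* is near 0.4 to 0.5 in all 6 fresh libraries and separates into WT (1.57) and KO (0.959) after culture, and *Ccr7* to *S1pr1* rises in WT (0.601 to 1.29) while the KO groups overlap.

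A list of 72 other genes of the same pathways was followed beside the receptors: other chemokine and lipid receptors, ligands, enzymes of ligand metabolism, desensitizing kinases and arrestins, G-protein and migration genes, and transcription factors known to regulate receptor genes. In the genotype comparison 3 of 56 tested genes passed at 0 h (5.36%, against 0.987% of all genes; 2 higher in WT) and 11 of 53 at 4 h (20.8%, against 10.9%; 2 higher in WT). Culture changed 34 of 57 in WT (59.6%, against 33.1% of all genes, with 4 upward) and 25 of 57 in KO (43.9%, against 23.3%, with 3 upward). The interaction passed for 9 of 57 (15.8%, against 6.39%, with 1 more positive in WT). The median log2 change in culture over the 57 was -0.33 in WT and -0.21 in KO, against 0.00 for all genes in both.

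Among the other receptors *Cnr2*, which encodes the cannabinoid receptor CB2 of B cells, was the one at a level like that of the 7. It fell from 213 ± 17.3 to 127 ± 1.98 CPM in WT and from 208 ± 2.85 to 152 ± 8.77 CPM in KO, and the interaction was -0.30 ± 0.09 (adjusted p = 0.0497). *S1pr3*, a marginal zone B cell marker, fell in both genotypes from 10.1 ± 1.87 CPM in WT 0 h and 9.67 ± 1.2 CPM in KO 0 h (log2 fold change -1.78 ± 0.25 in WT and -1.98 ± 0.26 in KO, adjusted p = 9.24e-06 and 6.88e-06). *S1pr2*, the sphingosine 1-phosphate receptor of germinal centre B cells, was lower in WT than in KO at 0 h (5.85 ± 1.47 against 14.2 ± 1.72 CPM, log2 -1.27 ± 0.21, adjusted p = 0.00685), together with the germinal centre markers above, a list that includes it. *Ccr1*, mostly a receptor of other leukocytes, averaged 0.436 to 1.74 CPM in the groups and fell in WT culture (-1.92 ± 0.56, adjusted p = 0.0112). The ligands *Cxcl12*, *Cxcl13*, *Ccl19*, *Ccl21a* and *Ccl20* gave no tested gene.

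Of the enzymes of ligand metabolism 4 of 9 passed in WT culture (44.4%, against 33.1% of all genes) and 3 of 9 in KO culture (33.3%, against 23.3%). By genotype 0 passed at either time in edgeR and in DESeq2, and 1 at 0 h and 2 at 4 h had an unadjusted p under 0.05 in edgeR, where 12.7% and 23.2% of all genes did. At 4 h DESeq2 called 9.35% of all genes. The sphingosine 1-phosphate phosphatase *Sgpp1* fell in both genotypes (-0.34 ± 0.08 in WT and -0.29 ± 0.08 in KO), as did the lipid phosphatase *Plpp3* (-1.39 ± 0.23 and -0.95 ± 0.25), listed under its older symbol *Ppap2b*. *Sgpp2* fell in WT (-0.47 ± 0.11), and in KO its change was -0.18 ± 0.11 (adjusted p = 0.24). Its interaction of -0.29 ± 0.15 did not pass (adjusted p = 0.336). *Sgpl1*, the lyase that degrades sphingosine 1-phosphate, rose in both (0.32 ± 0.09 in WT, adjusted p = 0.00957, and 0.27 ± 0.09 in KO, adjusted p = 0.0381).

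Of the 7 desensitization genes 5 fell in WT culture and 4 in KO culture, where 18% and 13% of all genes fell. By genotype 0 passed at either time in edgeR and in DESeq2. In edgeR 1 at 0 h and 2 at 4 h had an unadjusted p under 0.05, where 12.7% and 23.2% of all genes did. *Cd69*, whose product removes S1PR1 from the cell surface, fell from 58.1 ± 2.76 to 25.4 ± 4.64 CPM in WT (log2 -1.20 ± 0.10, adjusted p = 6.13e-09) and from 49.9 ± 1.14 to 21.2 ± 0.467 CPM in KO (log2 -1.23 ± 0.11, adjusted p = 1.66e-08), while *S1pr1* itself rose. The receptor kinases *Grk6* (-0.77 ± 0.06 in WT and -0.60 ± 0.06 in KO) and *Grk3*, listed as *Adrbk2* (-1.06 ± 0.27 and -1.35 ± 0.27), fell in both, as did the arrestin *Arrb2* (-0.37 ± 0.08 and -0.27 ± 0.08). *Arrb1* fell in WT (-0.55 ± 0.08), and in KO its change was -0.21 ± 0.08 (adjusted p = 0.0708). Its interaction of -0.34 ± 0.11 did not pass (adjusted p = 0.085).

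Of the 24 G-protein and migration genes 8 passed by genotype at 4 h (33.3%, against 10.9% of all genes), 6 of them higher in KO, and 6 passed the interaction (25%, against 6.39%), 5 of them more negative in WT. *Rap1b*, a small GTPase of integrin activation, fell from 353 ± 17.2 to 152 ± 8.98 CPM in WT and from 264 ± 3.33 to 188 ± 6.92 CPM in KO (interaction -0.73 ± 0.08, adjusted p = 3.67e-06). Its paralog *Rap1a* fell in both (-0.70 ± 0.08 and -0.37 ± 0.08). *Wipf1*, a partner of the actin regulator WASP, and *Elmo1*, a partner of DOCK exchange factors, also fell more in WT, with interactions of -0.57 ± 0.09 (adjusted p = 0.000361) and -0.33 ± 0.09 (adjusted p = 0.0324). The 1 gene of the list that passed the interaction with a positive value was *Gnb1*, a Gβ subunit, named here after its value was seen (0.32 ± 0.08, adjusted p = 0.0197). *Pik3cg*, the kinase catalytic subunit that Gβγ activates, was lower in WT than in KO at 4 h (-0.39 ± 0.08, adjusted p = 0.00303), with an interaction that did not pass (adjusted p = 0.0535).

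Of the 3 transcription factors *Klf2*, an activator of *S1pr1* in lymphocytes, differed most between the genotypes. It went from 266 ± 1.96 to 149 ± 14.7 CPM in WT culture and from 197 ± 3.67 to 223 ± 15.1 CPM in KO culture. *Klf2* was thus higher in WT before culture (log2 0.43 ± 0.05, adjusted p = 0.000341) and lower in WT after it (-0.59 ± 0.07, adjusted p = 6.43e-05), with an interaction of -1.02 ± 0.09 (adjusted p = 1.85e-07), whereas *S1pr1* rose in both and did not pass by genotype at either time. *Bach2*, a repressor of plasma cell differentiation, rose in KO culture from 803 ± 37.1 to 1116 ± 50.2 CPM (log2 0.48 ± 0.06, adjusted p = 1.49e-06) and was at 815 ± 11.5 and 792 ± 54.8 CPM in WT (adjusted p = 0.598). *Foxo1*, which sustains expression of lymphocyte homing receptors, rose in WT culture by 0.17 ± 0.06 on the log2 scale (adjusted p = 0.0408), and its change in KO was 0.16 ± 0.06 (adjusted p = 0.0705). Its interaction of 0.01 ± 0.09 did not pass (adjusted p = 0.972).

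**Figure D5:**
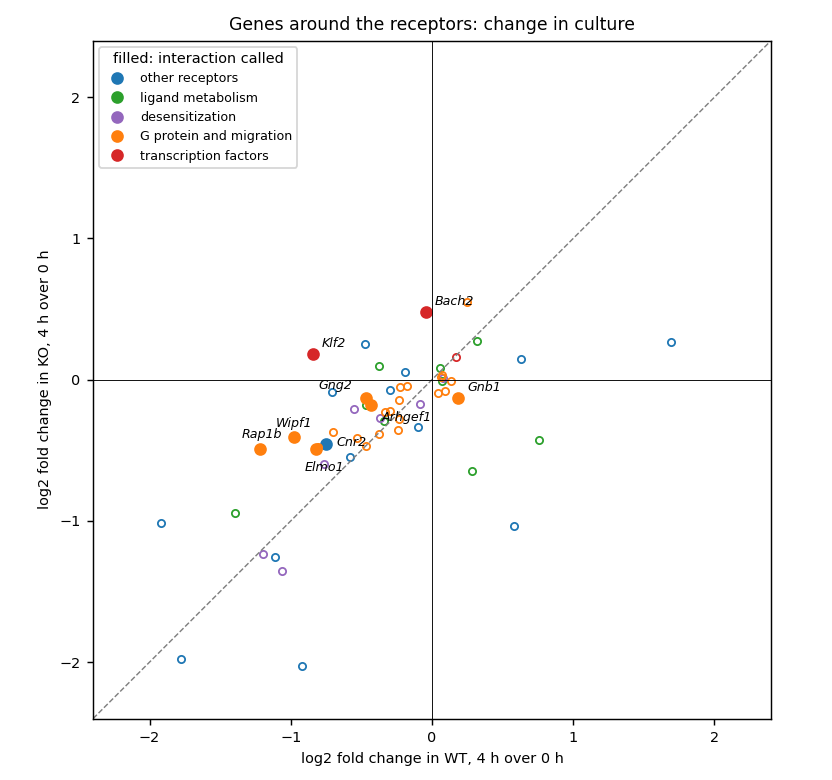
Log2 fold change in culture of the 57 tested genes of the pathway lists in WT (horizontal axis) and KO (vertical axis), coloured by list, with a dashed line of equal change. Filled and named points passed the interaction test: 8 of the 9, among them *Klf2* (-1.02) and *Rap1b* (-0.73), lie above the line, and *Gnb1* lies below it.

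The genes whose level over the 12 libraries was most like that of each receptor were named as a description, with Pearson's r of log2 CPM. The 12 points share genotype, time and scaling, so a high r follows from any like pattern over the 4 groups. For *Ccr7* they were *Spata13* (r = 0.988), *Gfod1* (0.986) and *Lamc1* (0.984), and for *Cxcr5* they were *Cotl1* (0.980), *Tpm4* (0.970) and *Il10ra* (0.970). For *S1pr1* they were *Gp49a* (0.966), *Fam160a1* (0.962) and *Ankrd27* (0.956), for *Ccr6* *Astl* (0.906), *Snord96a* (0.879) and *Pbx2* (0.878), and for *S1pr4* they included *1110038D17Rik* (0.882) and *Ormdl1* (0.880). *Gpr183* was most like *Smc5* (0.917), *Sh2b1* (0.873) and *Arih2* (0.869), and *Cxcr4* was most like *Rcan3* (0.891), *Wrb* (0.865) and *Fam118b* (0.857). None of the 7 receptors was among the 3 nearest genes of another receptor. The highest r between any pair of them was 0.713, of *Ccr7* with *Gpr183*, and the lowest was -0.736, of *Cxcr5* with *S1pr1*.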

How the data were processed

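RNA sequencing of sorted spleen follicular B cells was compared over 12 libraries, 3 in each of 4 groups set by genotype and hours of culture in the labels. The authors amplified RNA with the NuGEN Ovation RNA-seq System V2, sequenced single-end reads, mapped these onto mm10 by STAR and used HTSeq to count reads per gene. The submitters' processing notes also name DESeq2. Versions, annotation and strand setting are not given in the sources used here. The deposited values are raw counts per gene, in a table per time, with no gene under 10 reads summed over 6 libraries. Totals were 6098940 to 11618800, of which the *Rn45s* row took 6.65% to 11.3%. Replicates of a group differed by more than sampling noise, so all were kept.

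Genotype (WT over KO) was fitted on the 6 libraries of a time. Culture (4 h over 0 h) and the interaction (WT change minus KO change) were fitted on all 12 over genes in both tables. Genes were filtered with filterByExpr, scaled by TMM and tested with edgeR 4.0.16 (glmQLFit, glmQLFTest) in R 4.3.3, and called at a Benjamini-Hochberg adjusted p under 0.05 over all genes tested. The SE is the log2 fold change over the root of its F. On simulated counts of the 4 h genotype comparison (11122 genes) 76.5% of 1.5-fold and 96.9% of 2-fold changes were called. For the interaction (11471 genes) the shares were 39.8% and 81%. The simulation gave every gene the same relative spread and changed few genes, all in WT 4 h. Its shares therefore do not carry over to a gene of wide spread such as *Cxcr4*. Ratios of counts were tested by exact permutation over libraries.

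The receptors, gene lists and alternatives (other size factors, library totals, DESeq2 1.42.0, no filter, without *Rn45s*, a replicate block, other sets of libraries, each library left out) were chosen with earlier results of these data known. Named genes were all 7 receptors, at most 5 called genes of each pathway list by smallest adjusted p, the 3 genes most like each receptor by Pearson's r of log2 CPM (prior count 2), and *Gpr174*. Lists used current symbols or, where the tables hold only an older one, that. Some genes that this rule names are not reported here.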

Additional observations from a re-analysis of the deposited data

Results flagged for a closer look

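The change in culture differed between WT and KO, by the interaction term of edgeR with Benjamini-Hochberg adjustment, for 4 of the 7 receptors, and each value is the WT change minus the KO change on the log2 scale. It was 0.97 for *Ccr7* and 0.85 for *Ccr6*, both called whichever library was left out. It was 0.31 for *Cxcr5* and -0.40 for *S1pr4*, which lost the call without 8 and without 5 of the 12 libraries in turn. *Ccr6* was higher in all KO than in all WT libraries at 0 h and lower in all of them at 4 h.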

How the results depend on the processing

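Of 574 fold changes of the receptors recomputed under other settings, 531 kept their direction and their side of the threshold, 14 lost a call, 19 gained one and 10 changed sign. At 0 h 1 receptor in place of 0 was called (*Ccr6*, adjusted p 0.0118 to 0.0494) with DESeq2 size factors in edgeR, with library totals only, by the DESeq2 test, without *Rn45s* and with a replicate block. Leaving out 1 library gave 0 to 1 called receptors at 0 h, 3 to 5 at 4 h and 2 to 4 for the interaction. It gave 26 to 161 genes called at 0 h (50, 59, 26 and 55 without WT 0 h replicate 2, WT 0 h replicate 3, KO 0 h replicate 1 and KO 0 h replicate 3) and 776 to 1361 at 4 h (776 without KO 4 h replicate 1), where fewer samples enter the fit.

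*Cxcr4* changed sign in 4 comparisons when 1 library was left out. Its log2 fold change ran from -0.30 to 0.35 for genotype at 0 h, from -0.13 to 0.51 for culture in WT, from -0.27 to 0.030 for culture in KO and from -0.0025 to 0.64 for the interaction. *Gpr183* ran from -0.023 to 0.069 for culture in KO, and the log2 difference of the *Ccr7* to *Cxcr5* ratio by genotype at 0 h from -0.0073 to 0.12. For *Cxcr4* at 0 h the value was -0.0085 with library totals only. None of these was called before or after the change of sign, and the cause was not tested.

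Library totals raised the median change of all genes in WT culture from 0.00 to 0.11, and the share of called genes that rose from 45.7% to 66.7% in WT and from 44.2% to 66.3% in KO. At 0 h the share of called genes higher in WT was 50.9%, 35.2% with totals and 62.9% with all 12 libraries in the fit. With totals *Ccr6* (0.25) and *Gpr183* (0.24) were called in WT culture, *S1pr4* (0.22) was called in KO culture, and *S1pr4* lost its call in WT culture (-0.16, adjusted p = 0.0699). *S1pr4* at 4 h passed, with an adjusted p of 0.0222 to 0.0494, under 6 of the alternatives that kept every library of that time.

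The labels give the groups the same replicate numbers. Deviations of same-numbered libraries correlated at 0.072 to 0.126 between times in WT and at -0.040 to 0.152 in KO. Between genotypes they correlated at -0.0986 to 0.0728. Libraries of different number correlated at -0.0988 to -0.00407 between times in WT and at -0.180 to 0.0508 in KO. In WT every same-numbered pair was thus above every other pair, while in KO the ranges overlapped. Not every same-numbered pair was over 0.1 and no label states a shared mouse, so the numbers were not taken as a pairing. If such libraries do share a mouse, the main culture and interaction tests leave that pairing out. All 3 WT 0 h libraries and 2 of the 3 KO 0 h libraries correlated best with the 4 h library of their own number, a hint from the data and not the design. The replicate block gave 138 genes at 0 h, 1062 at 4 h, 3980 and 2859 for culture in WT and KO and 842 for the interaction. With it *Cxcr4* was -0.083 by genotype at 0 h, and was called for culture in WT (0.25 ± 0.06, adjusted p = 0.00481) and for the interaction (0.37 ± 0.09, adjusted p = 0.0127). Beyond these and *Ccr6* at 0 h and *S1pr4* at 4 h it changed no call of the receptors. Depth bounds the precision through the lowest receptor count, 635 in a library, and counting error alone is covered by it.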
